A study of Mus musculus with 6 samples.

Results

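The genes described here encode the mouse PIWI proteins and the factors that make their small RNA guides. They are Piwil1, Piwil2, Piwil4, Mov10l1, Pld6, Pnldc1, Tdrkh, Henmt1, Mael and Asz1. They were taken by symbol from the GENCODE release M21 annotation of the mm10 genome, and all 10 were found among the 51826 gene identifiers of the count files. RNA was sequenced from the testes of 8-week-old C57BL/6J mice, in 3 wild-type samples and 3 samples of the genotype KIFC1 knockout. KIFC1 is a kinesin-14, a motor that moves towards microtubule minus ends, and the series title places it in meiotic recombination and male fertility. How the knockout was made, and whether each sample was a separate animal, is not given in the sources used here, so the p-values speak only of the scatter among these samples, part or all of which may be technical.

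PIWI proteins are Argonaute-family proteins of the germ line that carry piwi-interacting RNAs (piRNAs) and silence transposons and other transcripts. A long single-stranded precursor is handed to the outer mitochondrial membrane by the helicase MOV10L1, cut by the nuclease PLD6, loaded into a PIWI protein, shortened at its 3′ end by PNLDC1 with the help of TDRKH, and methylated there by HENMT1. In the adult testis this machinery is used most by pachytene spermatocytes and round spermatids, where A-MYB, the product of Mybl1, activates piRNA precursors and many genes of the pathway.

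In the knockout libraries the RNA of 1 of these genes, Pld6, fell, to 49.1% of its wild-type mean, and no other passed the test. The Pld6 call was lost in 8 of 18 alternative settings. One of these removed each library's trends with exon GC content and length (edgeR adjusted p = 0.0748). The low-count filter passed 9 of the 10 genes, all but Piwil4. Of these 9, 0 rose and 1 fell at an adjusted p under 0.05 (edgeR quasi-likelihood test, Benjamini-Hochberg adjustment over 21518 genes). Across all genes tested 8.23% were called, 3.11% as higher and 5.12% as lower in knockout. At an unadjusted p under 0.05 the counts were also 0 and 1, where 27.1% of all genes passed, 12.1% as higher and 15.0% as lower. The DESeq2 Wald test likewise gave 0 and 1, and called 17.3% of the 19007 genes to which it gave an adjusted p, 8.05% as higher and 9.22% as lower. The median log2 fold change, knockout over wild type, was -0.15 over the 9 genes and -0.0088 over all genes tested. Bulk values such as these cannot tell fewer cells of a type from less RNA per cell.

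3 stretches, each upstream of a RefSeq start, are shown in which the binding motif of A-MYB can be read. They are not all such stretches, since Tdrkh also had a match in a stretch that is not shown. Mybl1 RNA was called higher in knockout. Whether the motif bears on the RNA levels of these genes was not tested. The log2 fold change of Mybl1 was 0.71 and became 0.14 (edgeR adjusted p = 0.545) with GC and length trends removed. RefSeq promoter entries on GRCm38.p6, the assembly of mm10, matched 8 of the 10 genes by symbol. Piwil2 and Pnldc1 were not matched. The 250 bases before each start were searched on both strands for the MYB motif in its 2 forms CAACNG and TAACNG, which differ in their first letter and so never match at the same base of a strand. Printed below are the bases before the first annotated exon of the gene in that window, 5′ to 3′ on the gene's own strand, with motif matches in capitals. They lie at chr11:59787658-59787907 on the minus strand for Pld6, at chr5:128735996-128736173 on the plus strand for Piwil1 and at chr15:88982744-88982908 on the plus strand for Mov10l1. The Piwil1 stretch lies inside the GENCODE span of that gene, which begins at a lower coordinate. It is thus upstream of the RefSeq start used, but not of the whole gene.
Pld6: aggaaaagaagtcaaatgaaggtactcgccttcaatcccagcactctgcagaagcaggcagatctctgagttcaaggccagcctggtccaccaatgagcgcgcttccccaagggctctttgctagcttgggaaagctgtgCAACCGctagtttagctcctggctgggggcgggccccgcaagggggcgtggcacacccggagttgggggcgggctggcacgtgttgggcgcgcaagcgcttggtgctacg
Piwil1: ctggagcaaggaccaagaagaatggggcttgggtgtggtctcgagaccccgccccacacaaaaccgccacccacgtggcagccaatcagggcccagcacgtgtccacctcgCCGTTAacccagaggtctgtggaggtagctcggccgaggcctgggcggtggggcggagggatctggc
Mov10l1: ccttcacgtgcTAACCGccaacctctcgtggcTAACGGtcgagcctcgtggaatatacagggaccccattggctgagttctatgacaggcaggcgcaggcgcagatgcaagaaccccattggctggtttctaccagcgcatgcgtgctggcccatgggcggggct
A match was present in 43.1% of the 32851 promoter entries of the genome. Pld6 had 1 match in this window, and a second Pld6 entry, which lies within the exons of the gene, had 2. Mov10l1 had 2 matches, a number reached by 12.6% of entries. Piwil1 had 3 matches over its whole window, a number reached by 2.82% of entries, of which 1 lies in the printed part. Tdrkh had 1 match, Piwil4 had 0 and 1 in its 2 entries, the second of which lies within the gene, and Mael, Henmt1 and Asz1 had 0 in these letters. For Henmt1, 195 of the 250 bases lie in exons of the gene, from the first base on. Its 0 therefore does not describe a region before the gene.

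The coding sequence of Pld6 is 663 bases long and 63.7% G or C, and 81.9% of its codons end in G or C. These were the highest shares among the 10 genes, whose coding GC content began at 42.9% in Asz1.

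The libraries held 29274603 to 38703606 counts, so that 3 counts correspond to 0.0763 to 0.0986 CPM (counts scaled to 1000000 counts a library), the limit set by counting error alone. Kifc1 stood at 15.5, 16.1 and 14.7 CPM in the wild-type samples and at 0.326, 0.737 and 0.282 CPM in the knockout samples. The drop, -5.09 on the log2 scale (SE 0.35, edgeR adjusted p = 0.00378), has the direction the labels give. The libraries also differed in base composition and in mitochondrial RNA. Deviations of genes from their mean over all libraries correlated with exon GC content at a Spearman rho of 0.269, 0.533 and 0.526 in wild type 1, 2 and 3 and of -0.281, -0.677 and -0.128 in knockout 1, 2 and 3, across genes, which are not independent replicates. Mitochondrial genes held 0.661% to 0.935% of counts in wild type and 1.54% to 5.74% in knockout. Markers of testis cells were present in every library. Of 8 spermatocyte markers 2 rose, Sycp1 and Sycp2, and 0 fell, beside 3.11% and 5.12% of all genes. Without overlap 3 were higher and 0 lower, beside 14.6% and 18.1% of all genes. The log2 fold changes of the 8 markers, 4 above and 4 below 0, had a median of 0.22 and a minimum of -0.34. With GC and length trends removed 0 of the 8 markers were called and their median was -0.067. Their summed level, 4316 to 6190 CPM in the wild-type samples and 3657 to 5204 CPM in the knockout samples, was mostly that of Ldhc, at 3080 to 4658 and 2370 to 3525 CPM. Round spermatid markers summed to between 968 and 1178 CPM in the wild-type samples and between 1122 and 1398 CPM in the knockout samples. Of the 7, 1 rose and 0 fell, beside 3.11% and 5.12% of all genes. Without overlap 2 were higher and 1 lower, beside 14.6% and 18.1% of all genes. The median log2 fold change of the 7 was 0.49. With GC and length trends removed 0 were called and the median was 0.30. In that setting 4 were higher and 0 lower at an unadjusted p under 0.05 (edgeR), beside 11.4% and 11.0% of all genes. Elongating spermatid markers summed to 21784 to 23365 CPM in the wild-type samples and 16787 to 27777 CPM in the knockout samples. Of these 8, 1 rose and 2 fell, with a median log2 fold change of -0.37. Of 8 spermatogonia markers 0 rose and 1 fell, and of 8 Sertoli cell markers also 0 and 1, both with a median of 0.067. With the trends removed 0 of these 3 lists were called. Red blood cell markers were lower in knockout without overlap of their sums, at 47.2 to 84.3 CPM and 29.1 to 46.9 CPM. Of these 3 markers 1 fell, Alas2 (log2 fold change -0.96, edgeR adjusted p = 0.0194), beside 5.12% of all genes. Leydig cell markers ran from 597 to 1299 CPM in the wild-type samples, with the lowest value in wild type 1, and from 973 to 1509 CPM in the knockout samples. Summed markers of Sertoli (920 CPM), peritubular myoid (85.6 CPM), macrophage (17.8 CPM) and endothelial cells (24.2 CPM) were also lowest in wild type 1 of all libraries. The summed spermatocyte markers were highest there, at 6190 CPM. Of 3 epididymis markers 2 were at 0 counts in every library. A fit without the mitochondrial genes called 1725 genes, with Pld6 at a log2 fold change of -1.01 (edgeR adjusted p = 0.0172). Otherwise the part of these differences in the results below was not tested, apart from the values given with the base composition trends removed.

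Compared per length, as CPM per kilobase of merged exon, the 10 genes spanned a wide range of levels. In wild type the order was Mael (670 ± 113, SD, n = 3), Piwil1 (111 ± 3.09), Pld6 (47.4 ± 4.97), Piwil2 (41.8 ± 2.19), Mov10l1 (24.3 ± 1.67), Henmt1 (12.3 ± 2.78), Asz1 (5.48 ± 0.781), Tdrkh (4.37 ± 0.0866), Pnldc1 (2.49 ± 0.0583) and Piwil4 (0.0361 ± 0.0136). Only Pld6 and Piwil2 were neighbours whose 3 wild-type samples overlapped. In knockout Piwil2 (33.5 ± 4.56) came before Pld6 (23.3 ± 3.52), with no overlap between their samples. Pld6 there overlapped Mov10l1 (22.6 ± 1.87), and Henmt1, Asz1 and Tdrkh overlapped each other in turn. Mael made up 72.6% ± 2.97 of the summed per-length level of the 10 genes in wild type and 74.4% ± 0.447 in knockout, while Pld6 made up 5.17% ± 0.124 and 2.91% ± 0.265 (SD, n = 3 each).

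**Figure D1:**
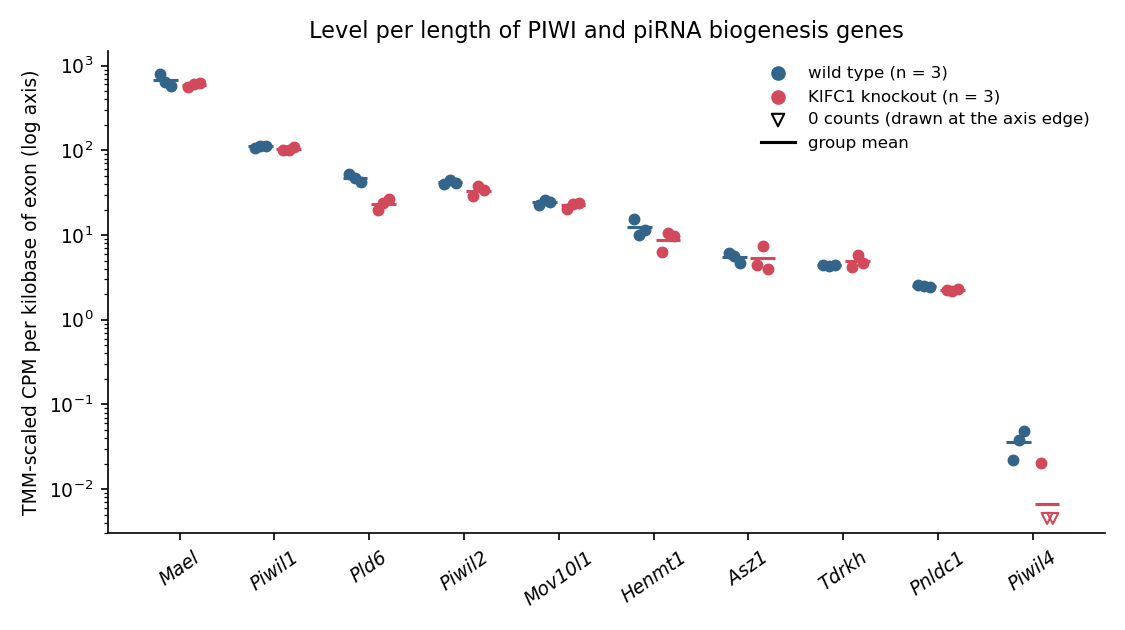
Level of each gene per kilobase of merged exon (vertical axis, logarithmic, TMM-scaled CPM per kilobase) in the 3 wild-type and 3 KIFC1 knockout samples, in wild-type order, with points for samples, lines for group means and open triangles at the axis edge for samples with 0 counts. Mael is the highest gene in both groups, Piwil4 lies at the detection limit, and Pld6 is the only one of the 3 next genes whose knockout points sit well below its wild-type points, at 19.5 to 26.5 against 42.5 to 52.4.

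The PIWI proteins themselves were represented mostly by Piwil1. Piwil1 encodes MIWI, the PIWI protein of pachytene spermatocytes and round spermatids, and lies on chromosome 5, 128702524 to 128755474, plus strand (ENSMUSG00000029423). Its level was 470, 497 and 487 CPM in the wild-type samples 1, 2 and 3 and 436, 434 and 480 CPM in the knockout samples 1, 2 and 3. The groups overlapped, since knockout 3 lay above wild type 1. The log2 fold change was -0.11 (95% interval -0.40 to 0.19, edgeR adjusted p = 0.638), and its sign turned to 0.12 once trends with GC content and exon length were removed.

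Piwil2 encodes MILI, the PIWI protein present from fetal germ cells to round spermatids, on chromosome 14, 70372477 to 70429383, minus strand (ENSMUSG00000033644). It stood at 211, 234 and 219 CPM in the wild-type samples and at 152, 200 and 179 CPM in the knockout samples. Every knockout sample lay below every wild-type sample. The log2 fold change was -0.32 (SE 0.15, 95% interval -0.65 to 0.02) and did not pass the test (edgeR adjusted p = 0.204, unadjusted p = 0.0591). Non-overlap of this kind, lower in knockout, was seen for 3 of the 9 genes, Pld6, Piwil2 and Pnldc1, and for 18.1% of all genes tested. Higher in knockout without overlap were 0 of the 9 genes and 14.6% of all genes tested, so that 32.7% of all genes were apart in 1 direction or the other.

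Piwil4 encodes MIWI2, the nuclear PIWI protein of fetal prospermatogonia, and was at the detection limit of these adult testes. It lies on chromosome 9, 14696230 to 14740733, minus strand (ENSMUSG00000036912). Its reads numbered 4, 8 and 8 in wild type and 4, 0 and 0 in knockout. Knockout 1 thus had as many reads as wild type 1. A level of 0 counts allows up to 0.0851 CPM in knockout sample 2 and 0.0939 CPM in knockout sample 3, and no fold change is given for Piwil4 because its knockout mean lies under that floor.

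Of the genes that act at the entry into processing, at the mitochondrial surface, Pld6 was called and Mov10l1 and Asz1 were not. This was 1 call among the 9 tested genes, beside 8.23% of all genes. It was lost in 8 of 18 alternative settings. Mov10l1 encodes the germ-line RNA helicase that feeds piRNA precursors to the nuclease (chromosome 15, 88982909 to 89055152, plus strand, ENSMUSG00000015365). It stood at 94.5, 109 and 102 CPM in the wild-type samples and at 86.0, 96.4 and 101 CPM in the knockout samples, with the groups interleaved. Its log2 fold change was -0.10 (95% interval -0.42 to 0.21, edgeR adjusted p = 0.669).

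Pld6 encodes the nuclease of the outer mitochondrial membrane, also called Zucchini or MITOPLD, that makes the 5′ ends of piRNA intermediates. It lies on chromosome 11, 59783897 to 59787645, minus strand (ENSMUSG00000043648), and shares no exon bases with another annotated gene. It stood at 92.2, 83.1 and 74.7 CPM in the wild-type samples 1, 2 and 3 and at 34.3, 41.8 and 46.6 CPM in the knockout samples 1, 2 and 3. All 3 knockout samples lay below all 3 wild-type samples, and the knockout mean was 49.1% of the wild-type mean. The log2 fold change was -1.03 (SE 0.17, 95% interval -1.41 to -0.65, edgeR adjusted p = 0.0168). With the GC and length trends of each library removed it was -0.65 (95% interval -0.98 to -0.32, edgeR adjusted p = 0.0748), and no longer passed the threshold, a setting in which 0.0837% of all genes were called, 0.0186% as higher and 0.0651% as lower. The call was also lost without wild type 1 (-0.92, adjusted p = 0.0634), wild type 2 (-1.03, adjusted p = 0.0900) or knockout 1 (-0.92, adjusted p = 0.0911).

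Asz1 encodes GASZ, the scaffold protein of the mitochondrial surface and of intermitochondrial cement (chromosome 6, 18050964 to 18109061, minus strand, ENSMUSG00000010796). It stood at 17.5, 15.9 and 13.1 CPM in the wild-type samples and at 12.7, 20.9 and 11.4 CPM in the knockout samples. Knockout 2 was the highest of all 6 samples and knockout 1 and 3 the lowest, which gave a log2 fold change of -0.048 with a wide interval (-0.62 to 0.53, edgeR adjusted p = 0.927). Asz1 has the lowest exon GC content of the 10 genes, 37.3%, and knockout 2 is the library with the strongest shift towards AT-rich genes. The part of this shift in the knockout 2 value of Asz1 was not tested. Once GC and length trends were removed, its log2 fold change was -0.57 (95% interval -1.04 to -0.09, edgeR adjusted p = 0.166, unadjusted p = 0.0245). With those trends removed and knockout 2 also left out, a setting chosen after seeing the data in which 2910 genes were called, it was -0.81 (edgeR adjusted p = 0.0204).

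**Figure D2:**
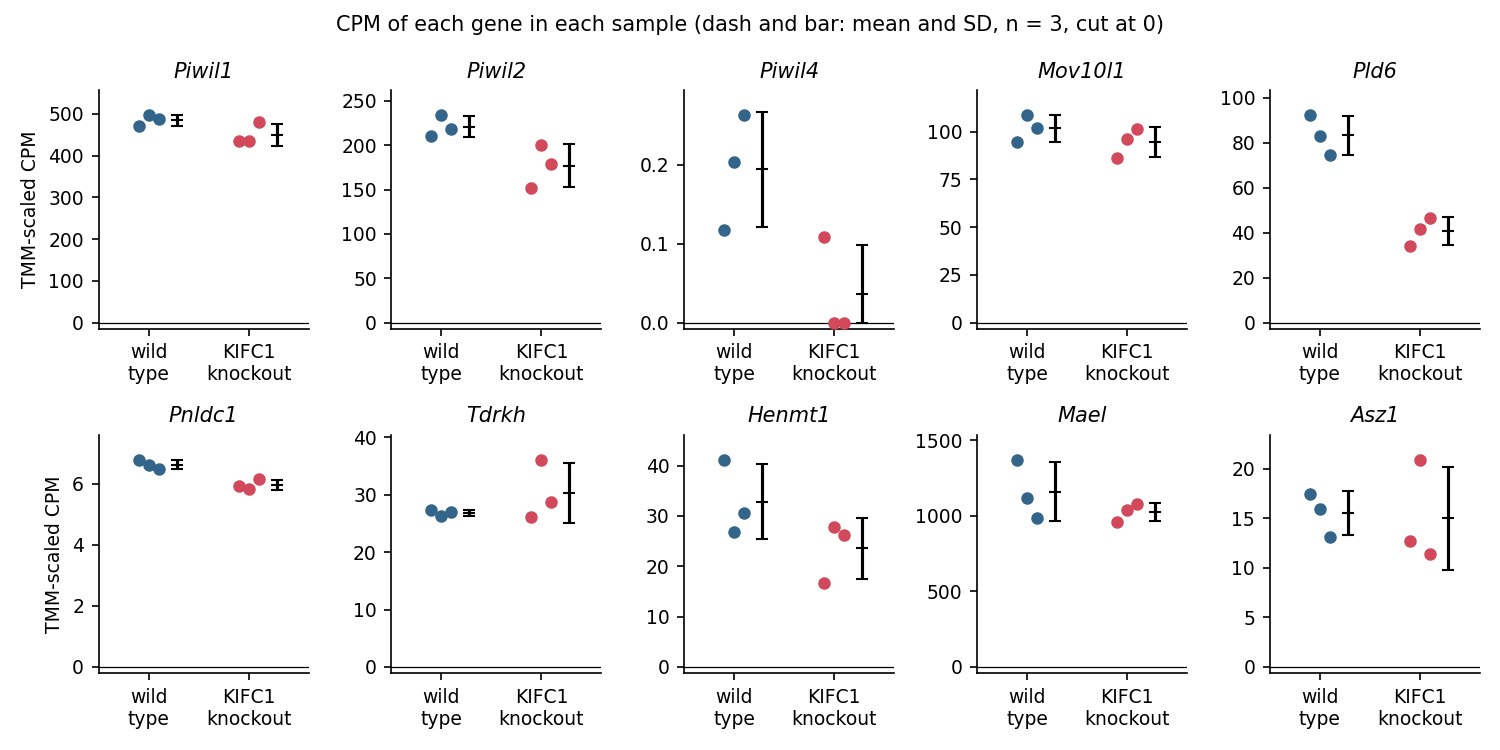
TMM-scaled CPM (vertical axes, each from 0) of each gene in each wild-type (blue) and KIFC1 knockout (red) sample, with the group mean and SD (n = 3) beside the points, cut at 0. Pld6 shows the widest gap between the groups, 74.7 to 92.2 against 34.3 to 46.6 CPM, and in Asz1 and Tdrkh the knockout 2 sample is the highest of the 6.

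The genes of 3′ end formation stood at low levels with no call. Tdrkh encodes a Tudor and KH domain protein of mitochondria that brings PIWI proteins to the trimming enzyme (chromosome 3, 94413273 to 94434668, plus strand, ENSMUSG00000041912). It stood at 27.3, 26.3 and 27.0 CPM in the wild-type samples and at 26.1, 36.1 and 28.7 CPM in the knockout samples. Knockout 2 and knockout 3 lay above all wild-type samples and knockout 1 below them. The log2 fold change of Tdrkh was 0.17 (95% interval -0.21 to 0.56, edgeR adjusted p = 0.550) and turned to -0.045 with GC and length trends removed. The level of Tdrkh is uncertain, because 36.7% of its merged exon length overlaps, on the opposite strand, exons of the spermatid gene Oaz3, which stood at 2032 ± 46.8 CPM in the wild-type samples and 2133 ± 485 CPM in the knockout samples, and the strand setting of the counting is not given in the sources used here.

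Pnldc1 encodes the exonuclease that trims piRNA intermediates (chromosome 17, 12888729 to 12910230, minus strand, ENSMUSG00000073460). It stood at 6.78, 6.59 and 6.47 CPM in the wild-type samples and at 5.92, 5.81 and 6.13 CPM in the knockout samples. The samples of each group lay close together and did not overlap, at means of 6.62 ± 0.155 and 5.96 ± 0.163 CPM (SD, n = 3). The log2 fold change of -0.15 did not pass the test (SE 0.19, 95% interval -0.57 to 0.27, edgeR adjusted p = 0.642) and turned to 0.044 with the trends removed. A total of 144 of its 2660 exon bases overlap an annotated antisense gene.

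Henmt1 encodes the methyltransferase that protects the 3′ end of mature piRNAs (chromosome 3, 108939873 to 108960774, plus strand, ENSMUSG00000045662). It stood at 41.2, 26.9 and 30.5 CPM in the wild-type samples and at 16.7, 27.9 and 26.2 CPM in the knockout samples. Wild type 1 was the highest and knockout 1 the lowest sample, and the other 4 lay between 26.2 and 30.5 CPM. Its log2 fold change was -0.48 (SE 0.24, 95% interval -1.03 to 0.07, edgeR adjusted p = 0.242) and -0.26 without wild type 1. On the opposite strand, 392 of its 2675 exon bases overlap the annotated gene Gm9857.

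Mael encodes maelstrom, a factor of piRNA precursor handling and transposon silencing found in nuage (chromosome 1, 166201201 to 166238747, minus strand, ENSMUSG00000040629). It stood at 1373, 1121 and 988 CPM in the wild-type samples and at 963, 1040 and 1080 CPM in the knockout samples. The wild-type samples spread more widely than the knockout samples, with SDs of 196 and 59.4 CPM, and wild type 1 was the highest. This gave a log2 fold change of -0.18 (95% interval -0.54 to 0.19, edgeR adjusted p = 0.520) and -0.013 without wild type 1. Among the wild-type samples, wild type 1 was also the highest for Asz1, Henmt1, Pld6, Pnldc1 and Tdrkh and the lowest for Piwil1, Piwil2, Piwil4 and Mov10l1.

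**Figure D3:**
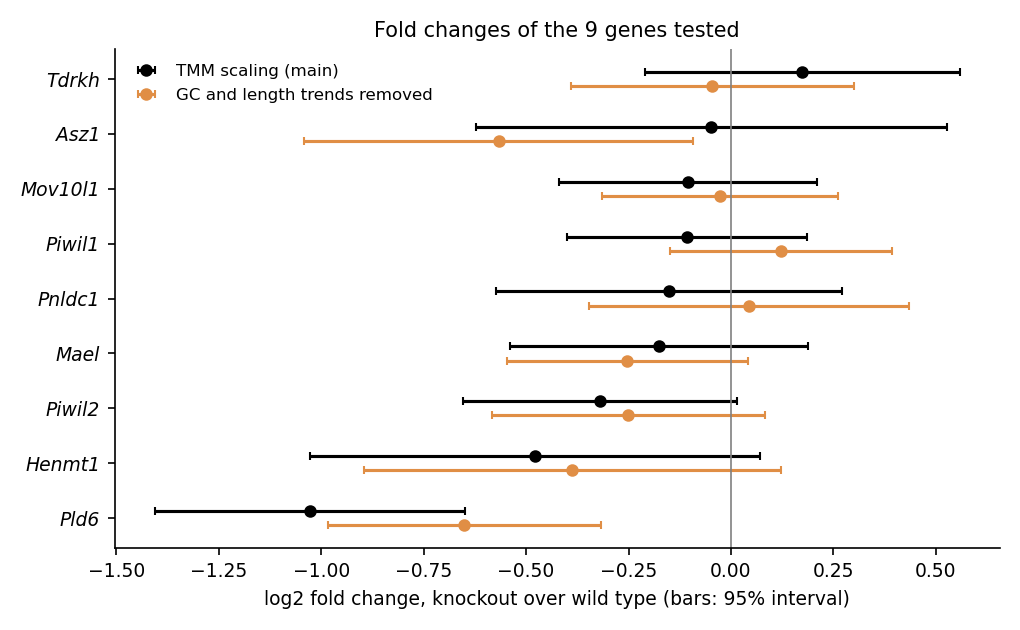
Log2 fold change, knockout over wild type (horizontal axis), of the 9 genes past the low-count filter, with TMM scaling (black) and after removal of per-library GC and length trends (orange), as points with 95% intervals. Pld6 is the only gene whose black interval lies apart from 0 (-1.41 to -0.65), and the orange points differ most from the black ones for Asz1 and Pld6.

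The fold changes were next set beside the base composition of the genes, because fold changes of all genes moved with it. Among genes with a mean log2 CPM above 2, the median log2 fold change ran from 0.43 in the 741 genes of at most 40% exon GC content to -0.59 in the 382 genes above 60%. The 10 genes ranged from 37.3% in Asz1 to 55.6% in Pld6. Genes within 1 percentage point of Pld6, 1113 in number, had a median of -0.35, against -1.03 for Pld6. Their 5% to 95% range was -1.08 to 0.47, so that Pld6 lay inside it, near its lower end. The 211 genes as AT-rich as Asz1 had a median of 0.47, against -0.048 for Asz1. Asz1 also lay inside their 5% to 95% range, -0.11 to 1.16, as did the other tested genes inside theirs. Differences from the median of genes of like GC content were -0.40 for Henmt1, -0.35 for Mael and -0.25 for Piwil2. They were smaller for Tdrkh (-0.057), Mov10l1 (-0.039), Pnldc1 (0.023) and Piwil1 (0.13). With the trends removed, 0 of the 9 genes passed the test in either direction, 0 were higher and 2 lower at an unadjusted p under 0.05 (Pld6 and Asz1), beside 11.4% and 11.0% of all genes in that setting, and their median log2 fold change was -0.25, against 0.0086 over all genes tested.

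**Figure D4:**
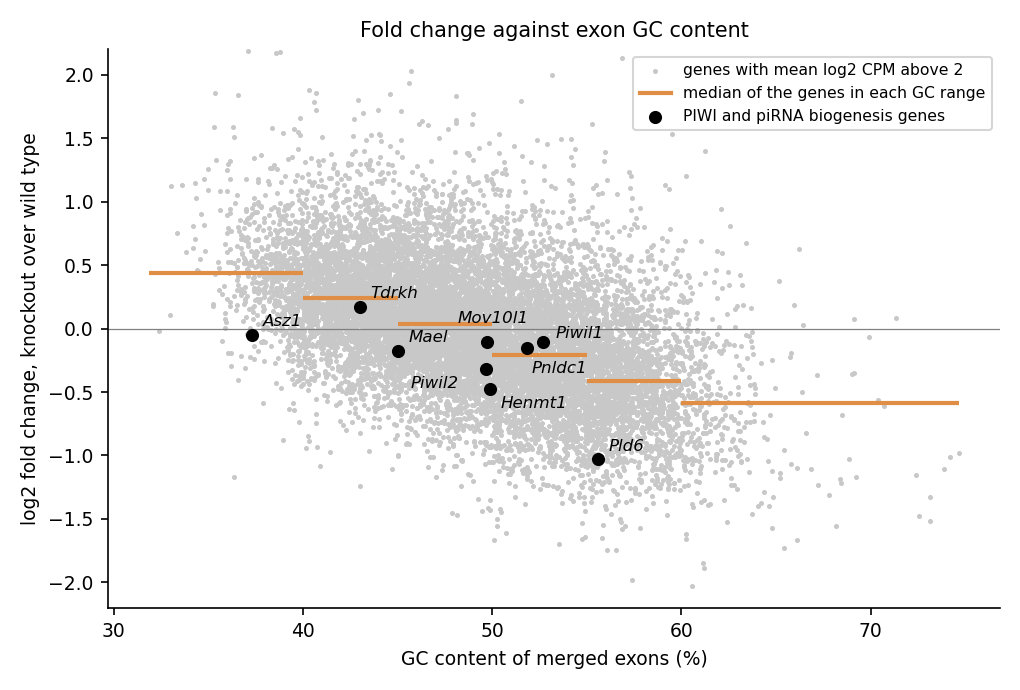
Log2 fold change, knockout over wild type (vertical axis), against the GC content of merged exons (horizontal axis, %), for genes with a mean log2 CPM above 2 (grey, 20 of 12751 outside the axis), with the median of each GC range (orange lines) and the 9 tested genes (black). Grey points fall from left to right, Pld6 at 55.6% GC lies at -1.03 below the line of its range, and Asz1 at 37.3% GC lies at -0.048, also below its line.

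Other genes of the piRNA pathway were read from a list of 24, all of which passed the filter. Of these, 1 rose and 1 fell (edgeR, adjusted p under 0.05), and their median log2 fold change was -0.03, so that the share called was 2 of 24 beside 8.23% of all genes. DESeq2 called 3 as higher and 3 as lower, beside 8.05% and 9.22% of all genes. Gpat2, which encodes a mitochondrial acyltransferase that acts with MILI in piRNA production, fell. It stood at 75.6, 69.1 and 65.3 CPM in the wild-type samples and at 26.9, 39.8 and 32.1 CPM in the knockout samples (log2 fold change -1.09, SE 0.18, edgeR adjusted p = 0.0168). Gpat2 and Pld6 both have 55.6% exon GC content, and with the trends removed Gpat2 had a log2 fold change of -0.73 (edgeR adjusted p = 0.0978). Mybl1 rose, from 38.2, 44.1 and 43.8 CPM to 75.7, 67.3 and 62.7 CPM (log2 fold change 0.71, SE 0.15, edgeR adjusted p = 0.0280). Its exon GC content is 36.7%, and its log2 fold change was 0.14 with the trends removed.

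No other gene of that list passed the edgeR test. The 6 with the next smallest p were Fkbp6, a co-chaperone gene of piRNA loading (log2 fold change -0.52, adjusted p = 0.0580), Spocd1, of piRNA-directed DNA methylation (-0.63, 0.0745), Tex15, of the same step (0.70, 0.0751), Morc1, of transposon silencing (0.68, 0.0768), the Tudor gene Tdrd7 (-0.40, 0.153) and Gtsf1, a partner of PIWI slicing (-0.53, 0.166). Of these, Fkbp6 at 53.5 ± 3.29 and 37.3 ± 2.68 CPM, Spocd1 at 8.64 ± 0.756 and 5.58 ± 0.350 CPM and Tdrd7 at 350 ± 27.2 and 265 ± 47.6 CPM lay lower in every knockout sample than in any wild-type sample. Tex15 at 53.3 ± 13.5 and 86.5 ± 13.2 CPM lay higher, as did Morc1, with 5.02, 4.61 and 4.27 CPM against 7.06, 6.64 and 8.54 CPM. With GC and length trends removed, Tex15 had a log2 fold change of 0.20, Spocd1 of -0.27 and Fkbp6 of -0.26, none of which passed. In the list as a whole, 6 genes were higher and 7 lower without overlap, beside 14.6% and 18.1% of all genes tested. Ddx4, the germ-cell helicase gene VASA, stood at 371 ± 20.4 and 412 ± 91.8 CPM (0.15, edgeR adjusted p = 0.622), and Tdrd1, which encodes a Tudor partner of MILI, at 192 ± 15.7 and 225 ± 20.1 CPM (0.23, edgeR adjusted p = 0.333).

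The sister branch of the Argonaute family, which carries microRNAs, was read from a list of 13 genes. Of these, 0 rose and 1 fell (edgeR, adjusted p under 0.05), 1 was higher and 1 lower at an unadjusted p under 0.05, and DESeq2 called 1 and 1. Over all genes the shares were 8.23% called by edgeR, 27.1% at an unadjusted p under 0.05 and 17.3% called by DESeq2, so that the edgeR share of this list was near the background. Their median log2 fold change was 0.10, and -0.057 with GC and length trends removed. The gene that fell was Tarbp2, which encodes a double-stranded RNA-binding partner of Dicer, at 138, 113 and 119 CPM in the wild-type samples and 69.9, 63.5 and 69.1 CPM in the knockout samples (-0.87, SE 0.14, edgeR adjusted p = 0.0168, and -0.60 with the trends removed, where the call was lost at an adjusted p of 0.0821). Drosha, the nuclear microRNA nuclease gene, stood at 50.3, 65.6 and 60.4 CPM and at 105, 66.1 and 119 CPM (0.71, SE 0.22, edgeR adjusted p = 0.0816). Ago4 (-0.30), Tnrc6a (0.40) and Ago2 (0.06) did not pass, the last at 24.4 ± 8.73 and 25.5 ± 4.10 CPM and uncertain because its exons overlap Chrac1 on the opposite strand. Whether this list and the PIWI genes differed in response was not tested.

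**Figure D5:**
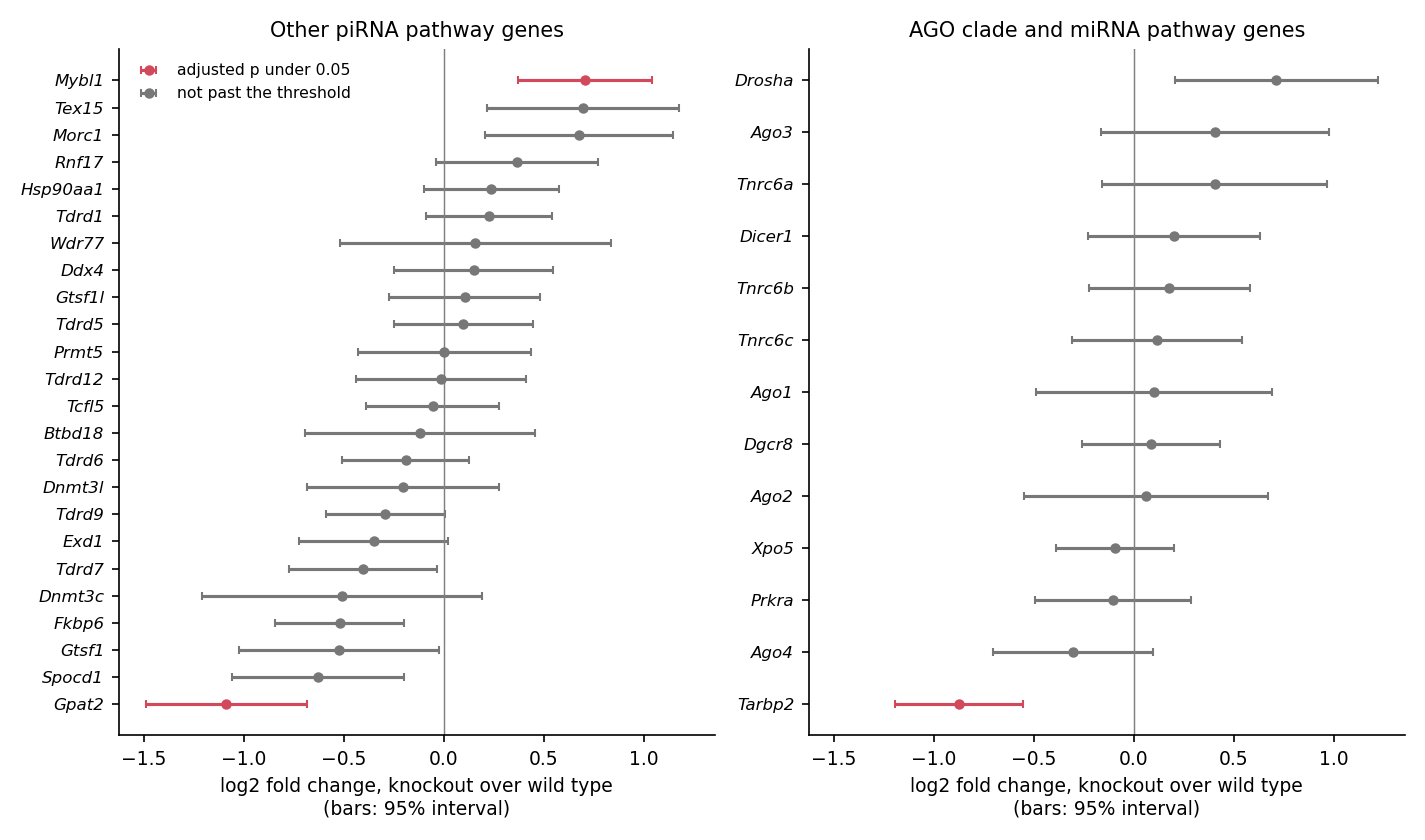
Log2 fold change, knockout over wild type (horizontal axes), of 24 other piRNA pathway genes and 13 AGO clade and microRNA pathway genes, as points with 95% intervals, red where the edgeR adjusted p was under 0.05. Mybl1 (0.71) and Gpat2 (-1.09) are the called genes at either end of the first list, and Tarbp2 (-0.87) is the called gene of the second.

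The pattern of Pld6 over the 6 samples was compared with 9096 other protein-coding genes averaging 10 CPM or more, by the root mean square difference of gene-centred log2 CPM. The nearest was Ppm1j, at a difference of 0.0428 on the log2 scale, with 172, 159 and 142 CPM in the wild-type samples and 69.6, 83.6 and 91.5 CPM in the knockout samples. Ier5 (0.0507) and Pgs1 (0.0617) came next. In Ppm1j, as in Pld6, wild type 1 was the highest sample and knockout 1 the lowest. Exon GC content was 58.3% for Ppm1j, 52.3% for Ier5 and 56.1% for Pgs1. These genes were picked for their likeness over samples that include the knockout difference, which is therefore a description.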

How the data were processed

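The deposited files hold raw counts per Ensembl gene, 1 file for each of the 6 samples, which the authors had not normalized. The submitters' processing notes name Trimmomatic, HISAT2, HTSeq and the mm10 build. Their versions, the annotation release, the strand setting and the handling of multi-mapped reads were not given in the sources used here. GENCODE M21 matched 51633 of 51826 identifiers and supplied symbols, merged exon lengths and exon GC content. Genes were tested in edgeR 4.0.16 under R 4.3.3 (quasi-likelihood, TMM scaling, filterByExpr, no covariates) over 21518 genes and 6 samples, two-sided, with a Benjamini-Hochberg adjusted p under 0.05 as the threshold. CPM values are TMM-scaled, and 95% intervals come from the quasi-likelihood F statistic. Trends with GC content and exon length were removed as offsets, splines with 5 degrees of freedom fitted per library on 12751 genes. DESeq2 1.42.0, other scalings and filters, a fit without mitochondrial genes, a replicate block and samples left out were alternatives. The genes and lists were chosen with earlier results of these data known. Every one of the 10 genes is named. Of the other lists the called genes, the 6 (piRNA) or 3 (AGO) next smallest p and 4 fixed genes, Ddx4, Mybl1, Tdrd1 and Ago2, are named. Asz1 with 2 changes of setting together was singled out after its values were seen. Within a group, chi-square per degree of freedom between libraries ran from 15.4 to 135, so that no library was a repeat of another. Depth per library and the floor it sets stand with the results.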

Additional observations from a re-analysis of the deposited data

How the results depend on the processing

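Pld6 was lower in knockout under all 18 alternatives, and its call was lost in 8. With the GC trend alone removed its log2 fold change was -0.69, with GC and length trends -0.65, and without knockout samples 1 and 3, a setting added after seeing the data, -0.99. That last setting leaves 1 knockout sample, which is assumed to vary like the wild-type samples, so its p-values say little of the spread in knockout. Leaving out single samples gave -1.11 to -0.92. Kifc1 kept its call except without knockout samples 1 and 3 (-4.38, edgeR adjusted p = 0.0517). Titles number the samples 1 to 3 in both groups, but same-numbered samples did not deviate together (correlations of -0.286, -0.0558 and -0.126). Under the replicate block, 21 genes were called over all genes, 0 of the 9 and 0 of either other list, with Pld6 at -1.03 (adjusted p = 0.0733), and with the block and the trends removed together 5, 0, 0 and 0, with Pld6 at -0.66 (adjusted p = 0.221).

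From 1770 calls, the count over all genes became 1010 without the low-count filter, 3284 with DESeq2, 8 with the GC trend removed, 18 with GC and length trends removed, 2 without knockout samples 1 and 3, and 2910 without knockout 2 and with the trends removed. Single samples left out gave 1 to 3149 calls: 5, 1 and 425 without wild type 1, 2 and 3, and 1, 3149 and 327 without knockout 1, 2 and 3. The 1 call among the 9 genes became 0 with either trend removal and without knockout samples 1 and 3, and 2 (Pld6 and Asz1) without knockout 2 with the trends removed, and ranged from 0 to 1 with single samples left out. The other piRNA list, with 2 calls, had 6 with DESeq2, 0 with either trend removal, 3 without knockout 2 with the trends removed, and 0 to 5 with single samples left out. The microRNA list, with 1 call, had 2 with DESeq2, 0 with either trend removal, 0 without knockout samples 1 and 3, 2 without knockout 2 with the trends removed, and 0 to 2 with single samples left out.

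Signs turned for 4 genes whose values did not pass the test. In the order GC trend removed, GC and length trends removed, block added to the latter, and trends removed without knockout 2, values on the log2 scale were 0.11, 0.12, 0.12 and 0.10 for Piwil1, 0.029, 0.044, 0.044 and 0.031 for Pnldc1, and -0.053, -0.045, -0.054 and -0.15 for Tdrkh. Asz1 ranged from -0.36 to 0.13 with single samples left out and was 0.44 without knockout samples 1 and 3. The cause of these changes was not tested. Piwil2, Henmt1, Mael and Mov10l1 kept their sign under all 18 alternatives. Depth limits Piwil4, with at most 8 counts a library.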
